A study of Mus musculus with 4 samples.

Results

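The genes described here are 10 antioxidant genes of erythroid cells and of the NRF2 pathway, measured by RNA sequencing in mouse fetal liver at embryonic day 14.5. They were chosen by name from the 10716 genes of the deposited table, and all 10 were found in it: Nfe2l2, Gclc, Gclm, Nqo1, Txnrd1, Srxn1, Prdx1, Prdx2, Gpx1 and Cat. The design compared 2 libraries labelled knockout (KO, replicates 1 and 2) with 2 labelled wild type (WT, replicates 3 and 8), all from C57BL/6 embryos. Every library was made from erythroid cells sorted by flow cytometry for YFP, which the R26eYFP reporter allele expresses in cells where Cre recombinase has acted. In the knockout-labelled libraries Cre under the erythropoietin receptor gene (Epor) acts on Adar, which encodes the adenosine deaminase ADAR1, so deletion is restricted to cells that express Epor. Their genotype field, Epor-Adar / +, leaves the number of deleted Adar alleles unstated, and that of the others reads wild type without naming the alleles behind the YFP signal. The labels do not say whether each library came from a separate embryo.

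Red cell precursors carry iron, haem and oxygen together, and peroxides formed from them are removed by peroxiredoxins, glutathione peroxidase and catalase. NRF2, encoded by Nfe2l2, is a transcription factor that the adaptor KEAP1 marks for degradation. Oxidants or electrophiles that modify KEAP1 let NRF2 accumulate and bind antioxidant response elements beside its target genes, together with small MAF proteins. Because this control acts largely on the protein, the mRNA level of Nfe2l2 is not a measure of NRF2 activity.

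Total counts ran from 28356401 to 44016809 per library, and the 10 genes had between 1007 and 187652 counts each in a library. Levels below are CPM, with each library total adjusted by the TMM method. Adar had 67.1 and 102 CPM in KO replicates 1 and 2, against 50.9 and 46.9 CPM in WT replicates 3 and 8, so the targeted gene was not lower in the libraries labelled knockout. A count over the whole gene can include exons that a conditional allele keeps, and no label says which exons were removed. Y-linked genes went against the sex label in 3 of 4 libraries. Eif2s3y had 106 CPM in KO replicate 1 and 0 in KO replicate 2, against 72.2 and 79.6 CPM in WT replicates 3 and 8. Ddx3y, Kdm5d and Uty were likewise lowest in KO replicate 2, at 0.078, 0 and 0 CPM. The part of sex in the results below was not tested. Whether library labels were exchanged was not tested, so KO and WT mean the libraries so labelled throughout, and every direction given rests on those labels. Of 16 erythroid markers 13 were in the table, and their summed level was 82806 and 82938 CPM in the KO libraries, against 122038 and 78350 CPM in the WT libraries. The globin genes Hba-a1, Hba-a2 and Hbb-b1 made up most of that sum. Klf1 had 204 and 520 CPM in KO, against 689 and 533 CPM in WT, whereas Tfrc had 5282 and 3479 CPM, against 4113 and 2614 CPM. Of the 13 markers 2 were higher and 2 lower without overlap between the groups. Summed markers of neutrophils (8 of 10 in the table, none at 0 in a library) were 342 CPM in KO replicate 1 and 39.9 in KO replicate 2, against 44.5 and 48.5 in the WT libraries. Summed macrophage markers (10 of 14 in the table, none at 0) were 51.7 and 28.1 CPM in KO, against 62.1 and 36.7 CPM in WT. Of the 10, 6 were lower in both KO libraries than in both WT libraries, where 26.7% of all genes were. Lyz2, which neutrophils also express, made up 43.1 CPM of the macrophage sum in KO replicate 1. The other 9 macrophage markers summed to 8.61 and 19.8 CPM in KO, against 52.4 and 25.8 CPM in WT. Megakaryocyte markers (7 of 9, none at 0) summed to 134 and 82.1 CPM in KO, against 42.5 and 68.7 CPM in WT, and endothelial markers (5 of 6, none at 0) to 27.7 and 32.2 CPM, against 14.0 and 12.5 CPM. Without overlap between the groups, 4 of the 7 megakaryocyte and 4 of the 5 endothelial markers were higher, where 27.4% of all genes were. Hepatoblast markers (9 of 13, none at 0) summed to 60.1 and 71.5 CPM in KO, against 131 and 51.8 CPM in WT, and the early progenitor markers (3 of 8, none at 0) to 132 and 78.5 CPM, against 76.6 and 82.6 CPM. The part of these cell types, and of KO replicate 1, in the results below was not tested beyond the fits without each library.

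The comparison asks how the antioxidant genes differ when Adar is targeted in erythroid cells. None of the 10 genes passed the test over all genes (edgeR quasi-likelihood test, Benjamini-Hochberg adjusted p below 0.05), where 11 genes passed, all higher in KO (0.103% of the 10716 tested, and 0% lower). The glutathione synthesis genes Gclc and Gclm and the catalase gene Cat were higher in both KO libraries than in both WT libraries, by between 1.46 and 1.65 times in the means. The sulfiredoxin gene Srxn1 and the thioredoxin reductase gene Txnrd1 differed more between the KO libraries than between the groups. The most abundant genes, Gpx1 and Prdx2, and the NRF2 gene itself had group means at most 1.19 times apart. At an unadjusted p below 0.05 there were 2 of the 10 genes, both higher (Gclc and Gclm), where 11.9% of all genes tested reached that level, 9.82% as higher and 2.08% as lower. The median log2 fold change of the 10 genes was 0.077, against -0.00077 over all genes. In bulk samples, fewer cells of a type and less RNA per cell cannot be told apart.

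**Figure D1:**
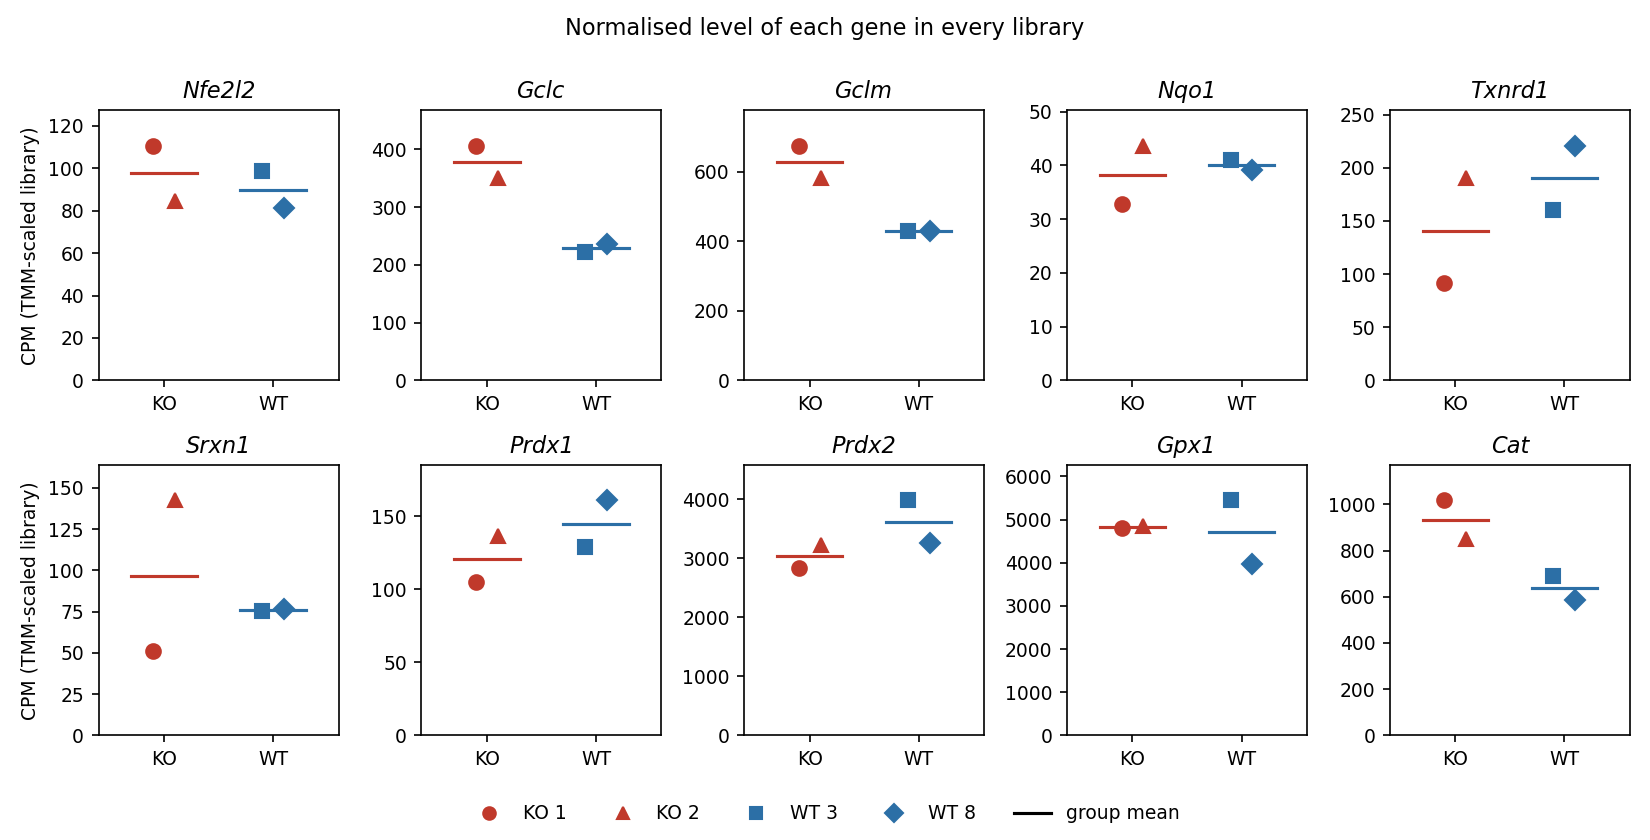
Each panel shows 1 gene, with CPM of the TMM-scaled library on a vertical axis that starts at 0, the KO libraries in red on the left, the WT libraries in blue on the right and a line at each group mean. Gclc, Gclm and Cat have both KO points above both WT points, whereas the KO points of Srxn1 (50.9 and 142 CPM) lie on either side of the WT points.

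Nfe2l2 (ENSMUSG00000015839, chromosome 2 of NCBIM37, 75513570 to 75542698, minus strand) encodes NRF2. It had 111 and 84.4 CPM in KO replicates 1 and 2, against 98.7 and 81.3 CPM in WT replicates 3 and 8. The groups overlapped, with WT replicate 3 between the KO libraries. KO over WT gave 0.12 on the log2 scale (SE 0.22, edgeR adjusted p = 0.79), with a 95% interval from -0.43 to 0.66.

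The first and rate-limiting step of glutathione synthesis is carried out by glutamate-cysteine ligase, whose catalytic subunit is encoded by Gclc and whose modifier subunit by Gclm. Both are known NRF2 targets. Gclc (ENSMUSG00000032350, chromosome 9, 77602342 to 77642292, plus strand) had 407 and 351 CPM in KO replicates 1 and 2, against 223 and 236 CPM in WT replicates 3 and 8. Every KO library was higher than every WT library, and the gap between the groups was wider than that between replicates. The means were 379 ± 39.5 CPM in KO and 229 ± 9.31 CPM in WT (SD, n = 2 each), a log2 fold change of 0.73 (SE 0.20, 95% interval 0.23 to 1.22, edgeR adjusted p = 0.346). It was the smallest p among the 10 genes. The log2 fold change of Gclc was 0.61 without KO replicate 1 and 0.82 without KO replicate 2.

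Gclm (ENSMUSG00000028124, chromosome 3, 121948475 to 121972902, plus strand) had 675 and 583 CPM in KO replicates 1 and 2, against 431 and 429 CPM in WT replicates 3 and 8. As with Gclc, the KO libraries were both higher, and KO replicate 1 was the higher of them. The means were 629 ± 65.1 CPM in KO and 430.0 ± 1.17 CPM in WT (SD, n = 2 each), with a log2 fold change of 0.55 (SE 0.22, 95% interval 0.021 to 1.08, edgeR adjusted p = 0.419). Exons of Gclm overlap those of the long non-coding gene Gm17494 on the other strand. The strand setting of the counts is not given in the sources used here, so reads of the pair cannot be told apart.

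Nqo1 (ENSMUSG00000003849, chromosome 8, 109912125 to 109927106, minus strand) encodes the quinone reductase that is often read as an NRF2 reporter. It had 32.8 and 43.7 CPM in KO replicates 1 and 2, against 41.0 and 39.2 CPM in WT replicates 3 and 8. The KO libraries lay on either side of the WT libraries. KO over WT gave -0.067 on the log2 scale (SE 0.22, edgeR adjusted p = 0.883), with a 95% interval from -0.61 to 0.47.

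Txnrd1 and Srxn1 act in thiol repair: thioredoxin reductase 1, a selenoprotein, recharges thioredoxin with electrons from NADPH, and sulfiredoxin reduces peroxiredoxins that have been over-oxidised. Txnrd1 (ENSMUSG00000020250, chromosome 10, 82296696 to 82360469, plus strand) had 91.1 CPM in KO replicate 1 and 190 CPM in KO replicate 2, against 161 and 221 CPM in WT replicates 3 and 8. KO replicate 1 was below the other 3 libraries, while KO replicate 2 lay between the WT libraries. The log2 fold change was -0.44 (SE 0.38, 95% interval -1.37 to 0.49, edgeR adjusted p = 0.565). Without KO replicate 2 Txnrd1 passed as lower (-1.08, edgeR adjusted p = 0.0119), in a fit where 15.3% of all genes passed as lower, and without KO replicate 1 the value was -0.0035 and was not called.

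Srxn1 (ENSMUSG00000032802, chromosome 2, 151931252 to 151937112, plus strand) had 50.9 CPM in KO replicate 1 and 142 CPM in KO replicate 2, against 75.2 and 76.4 CPM in WT replicates 3 and 8. The KO libraries thus differed 2.8 times from each other and stood on opposite sides of WT libraries that nearly coincided. The log2 fold change over all libraries was 0.35 (SE 0.46, 95% interval -0.77 to 1.47, edgeR adjusted p = 0.696). The value was 0.91 without KO replicate 1 and -0.58 without KO replicate 2, so its sign depended on which KO library was kept. No direction is therefore given for Srxn1. The log2 difference between KO replicates 1 and 2 was -1.48 for Srxn1, larger in size than for 95.7% of all genes, and -1.06 for Txnrd1, larger than for 89.7%. The same difference was between -0.41 and 0.39 for the other 8 genes, and the median size over all genes was 0.38. KO replicates 1 and 2 also differed in Y-linked RNA, and whether sex contributed to these differences was not tested.

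**Figure D2:**
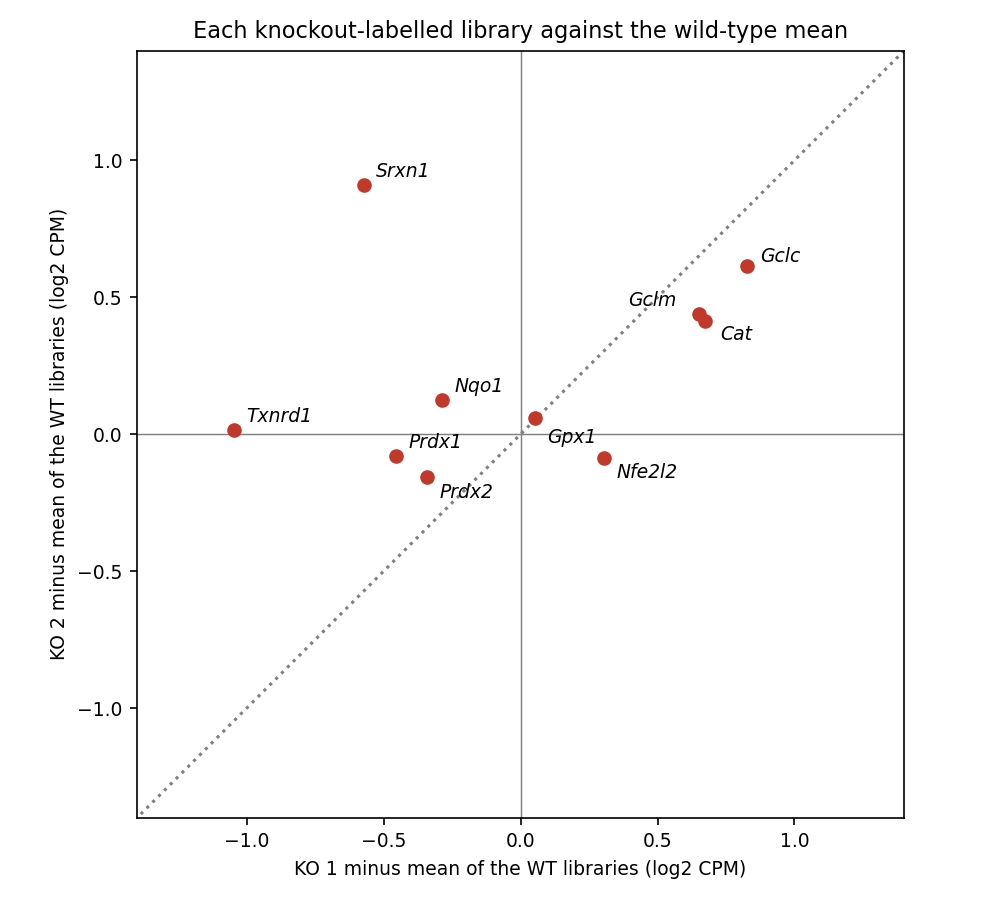
Each point is 1 of the 10 genes, with its log2 CPM in KO replicate 1 minus the mean of the WT libraries on the horizontal axis and the same for KO replicate 2 on the vertical axis; the dotted line marks equal values. Gclc, Gclm and Cat lie at upper right, Txnrd1 is at -1.05 and 0.015, and Srxn1 is at -0.57 and 0.91.

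The start regions of Srxn1, Prdx1 and Gclm are shown. Srxn1 and Prdx1 held both motifs searched, and Gclm was the gene higher in both KO libraries that held a motif. The windows span 250 bases before to 50 bases after the start and are RefSeq sequences on GRCm38.p6, here all on the plus strand (chr2:152105274-152105573, chr4:116685349-116685648 and chr3:122245307-122245606). Capitals mark the core of the antioxidant response element, TGACNNNGC, and the core TGAGTCA bound by AP-1 and NF-E2, each searched on both strands. The 2 motifs overlap in Prdx1.
Srxn1: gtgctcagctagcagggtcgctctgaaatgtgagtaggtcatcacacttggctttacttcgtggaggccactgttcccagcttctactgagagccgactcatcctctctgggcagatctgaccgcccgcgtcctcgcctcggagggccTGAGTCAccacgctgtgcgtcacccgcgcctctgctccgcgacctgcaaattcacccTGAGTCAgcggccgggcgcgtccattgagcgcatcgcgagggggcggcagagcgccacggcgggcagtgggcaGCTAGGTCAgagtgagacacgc
Prdx1: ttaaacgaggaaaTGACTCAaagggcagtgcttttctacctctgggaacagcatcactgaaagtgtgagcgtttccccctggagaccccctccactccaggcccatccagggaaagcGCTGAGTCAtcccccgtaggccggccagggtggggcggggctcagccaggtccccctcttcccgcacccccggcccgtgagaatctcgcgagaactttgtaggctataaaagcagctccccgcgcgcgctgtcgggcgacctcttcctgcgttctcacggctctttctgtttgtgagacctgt
Gclm: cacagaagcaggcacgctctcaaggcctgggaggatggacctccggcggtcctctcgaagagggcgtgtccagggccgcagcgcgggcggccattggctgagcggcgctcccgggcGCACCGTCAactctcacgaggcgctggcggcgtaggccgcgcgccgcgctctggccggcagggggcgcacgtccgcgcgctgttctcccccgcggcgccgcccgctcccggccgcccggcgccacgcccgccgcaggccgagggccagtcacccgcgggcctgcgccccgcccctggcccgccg
In Srxn1 the TGAGTCA cores begin 102 and 45 bases upstream of the start, and in Prdx1 they begin 237 and 131 bases upstream. The antioxidant response element core begins 28 bases after the start in Srxn1 and 133 bases upstream in Prdx1. Variants of that core, such as TGAG in place of TGAC, were not searched. The single match in Gclm begins 134 bases upstream. RefSeq windows were found for 9 of the 10 genes (11 windows, 3 of them for Txnrd1), and the tenth is Gclc. The antioxidant response element core was in 5 of the 11 windows, those of Nfe2l2, Srxn1, Gclm and Prdx1 and 1 of Txnrd1, where 12.4% of all 32851 windows and 14.8% of the 9244 windows of genes in the table held it. TGAGTCA was in the windows of Srxn1 and Prdx1 only, where 5.2% of all windows held it and 0.222% held 2 or more. Among genes in the table, 3.35% of windows held it and 0.0974% held 2 or more. The window of Cat, which like Gclm was higher in both KO libraries, held neither motif, nor did those of Nqo1, Prdx2 and Gpx1. A match describes letters in a window and is not a bound site.

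Hydrogen peroxide is removed by the other 4 genes. Prdx2 (ENSMUSG00000005161, chromosome 8, 87493486 to 87498733, plus strand) encodes peroxiredoxin 2, among the most abundant proteins of the red cell after haemoglobin. It had 2841 and 3232 CPM in KO replicates 1 and 2, against 3982 and 3261 CPM in WT replicates 3 and 8. Both KO libraries were lower than both WT libraries, but KO replicate 2 and WT replicate 8 were almost level. The log2 fold change was -0.25 (SE 0.28, 95% interval -0.94 to 0.43, edgeR adjusted p = 0.644). Exons of Prdx2 overlap those of Rnaseh2a on the other strand, and Rnaseh2a was counted at 95.4 and 121 CPM in KO, against 105 and 107 CPM in WT.

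Prdx1 (ENSMUSG00000028691, chromosome 4, 116358149 to 116373427, plus strand) encodes a second cytosolic peroxiredoxin, which is an NRF2 target. It had 105 and 136 CPM in KO replicates 1 and 2, against 129 and 161 CPM in WT replicates 3 and 8. The groups overlapped, with KO replicate 1 the lowest library. The log2 fold change was -0.26 (SE 0.23, 95% interval -0.82 to 0.29, edgeR adjusted p = 0.562). The longest run of identical bases between annotated transcripts of Prdx1 and Prdx2 was 14. How shared reads were counted is not given in the sources used here.

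Gpx1 (ENSMUSG00000063856, chromosome 9, 108241607 to 108242671, plus strand) encodes the cytosolic selenoprotein that uses glutathione to reduce peroxides. It had 4814 and 4845 CPM in KO replicates 1 and 2, against 5445 and 3964 CPM in WT replicates 3 and 8. The KO libraries nearly coincided and lay between the WT libraries. KO over WT gave 0.038 on the log2 scale (SE 0.30, edgeR adjusted p = 0.955), with a 95% interval from -0.70 to 0.78, and it was -0.016 without library scaling.

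Cat (ENSMUSG00000027187, chromosome 2, 103294006 to 103325317, minus strand) encodes catalase, which splits hydrogen peroxide without a reductant. It had 1017 and 848 CPM in KO replicates 1 and 2, against 691 and 588 CPM in WT replicates 3 and 8. All KO values were above all WT values, and KO replicate 1 was again the highest. The means were 933 ± 119 CPM in KO and 640 ± 73.0 CPM in WT (SD, n = 2 each), with a log2 fold change of 0.54 (SE 0.24, 95% interval -0.045 to 1.13, edgeR adjusted p = 0.433). Gclc, Gclm and Cat kept a positive value without each library in turn, from 0.61 to 0.82, from 0.44 to 0.64 and from 0.41 to 0.67. Without KO replicate 1 the values were 0.61, 0.44 and 0.41, each lower than with all libraries (0.73, 0.55 and 0.54). That library held the most neutrophil marker RNA, and the part of neutrophil RNA in these values was not tested.

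**Figure D3:**
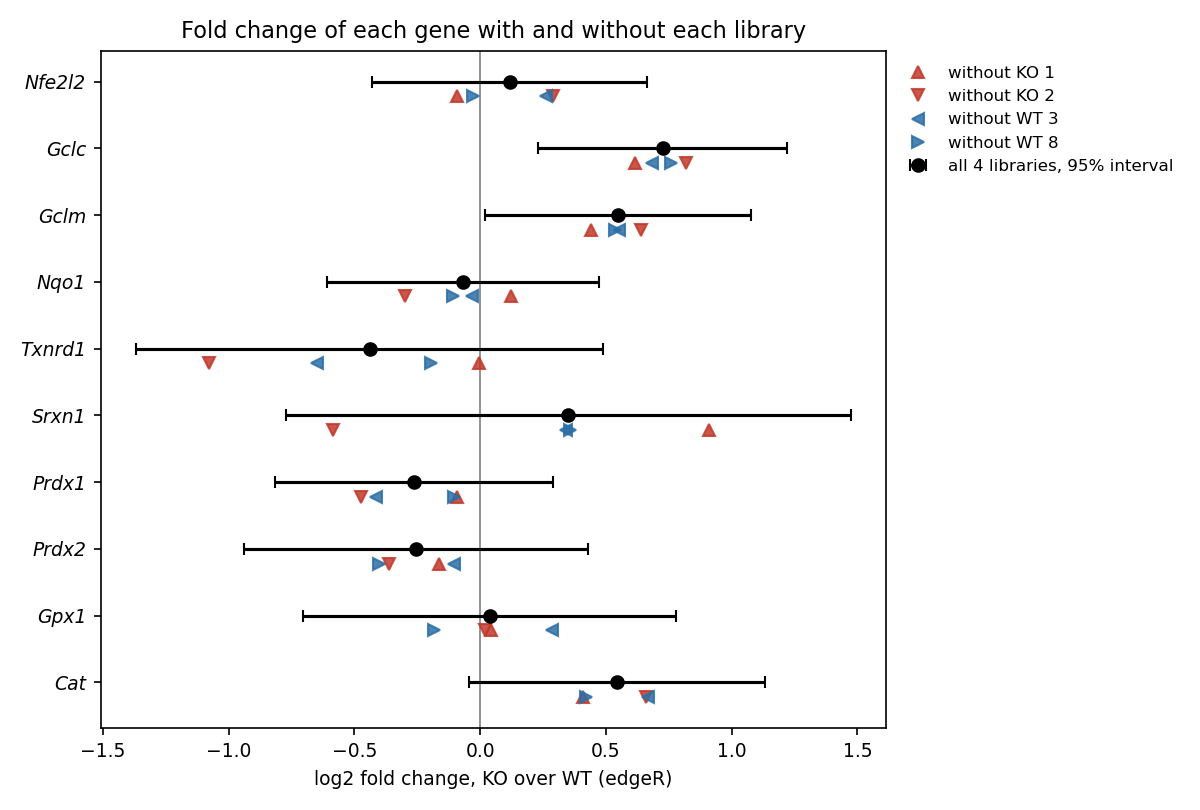
For each gene the black point is the edgeR log2 fold change of KO over WT with its 95% interval, and the triangles below it are the values when 1 library is left out. The intervals of Gclc and Gclm lie above 0 before adjustment over all genes, and the values of Srxn1 without KO replicate 1 (0.91) and without KO replicate 2 (-0.58) lie on opposite sides of 0.

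In total 3 of the 10 genes were higher and 1 was lower without overlap between the groups, and 6 overlapped. Over all genes tested 27.4% were higher and 26.7% lower without overlap (54% in all), so the share of higher genes among the 10 was close to that of the table. With 2 libraries a group, the exact two-sided permutation p of a single gene cannot go below 0.333. The authors' deposited table, with its sign turned to KO over WT, gave log2 fold changes from -0.51 (Txnrd1) to 0.73 (Gclc) for the 10 genes, and adjusted p values from 0.394 to 0.943. For Srxn1 that table gave 0.17.

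The other fits called the following shares of all genes, in either direction. With 0 of the 10 genes called, the share was 0.103% with RLE scaling or no filter, 0.812% without library scaling, 0.142% with a stricter filter and 0.14% with robust=FALSE or legacy=FALSE. It was 0.0747% with limma-voom, 3.49% with DESeq2 and 3.26% with edgeR's likelihood ratio test, and 0.383% and 0.252% without WT replicates 3 and 8, again with 0 of the 10 called. With KO replicate 1 left out 1 of the 10 passed, where 1.33% of all genes did (0.0467% as lower), and with KO replicate 2 left out 3 of the 10 passed, where 32.6% of all genes did.

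Per kilobase of annotated exon the order of levels was led in both groups by Gpx1 (5702 CPM per kilobase in KO and 5554 in WT), Prdx2 (996 and 1187) and Cat (357 and 245). Each of these 3 was above the next gene in every library of both groups. Gclm (122 CPM per kilobase in KO and 83.7 in WT) and Gclc (111 and 66.9) followed, and their KO libraries overlapped while their WT libraries did not. Prdx1 (39.7 and 47.7), Txnrd1 (35.0 and 47.5) and Srxn1 (34.3 and 26.9) came next, and the lowest levels were those of Nfe2l2 (25.7 and 23.7) and Nqo1 (24.6 and 25.8). Among these 5 genes neighbours in the order overlapped in KO, and in WT Prdx1 overlapped Txnrd1 and Nqo1 overlapped Nfe2l2. The exon lengths join all annotated transcripts of a gene, so the per-kilobase level of a gene with long minor transcripts is understated. Together the 10 genes took 0.958% and 1.06% of counts in the KO libraries (95% Wilson intervals 0.955% to 0.962% and 1.05% to 1.06%), against 1.10% and 0.974% in the WT libraries (1.09% to 1.10% and 0.971% to 0.977%). These intervals cover counting error only.

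Other redox genes were read from 6 lists with 85 of 96 genes in the table. Over all genes tested 2 of the 85 rose and 0 fell: the cystine transporter gene Slc7a11 and the stress pseudokinase gene Trib3. At an unadjusted p below 0.05 there were 15 higher genes (17.6%, where 9.82% of all genes were) and 2 lower. Slc7a11 and Trib3 are also targets of the stress factor ATF4. The share of such targets among the 15 was not tested, so the count is not a measure of NRF2 activity. Without overlap between the groups 40.0% were higher and 24.7% lower, where 27.4% and 26.7% of all genes were. The counts of 2 and 0 became 12 and 1 with DESeq2, 12 and 0 with edgeR's likelihood ratio test, 4 and 0 without KO replicate 1, and 18 and 11 without KO replicate 2. DESeq2 called 3.29% of all genes higher and 0.196% lower, and the likelihood ratio test 3.09% and 0.168%. Among genes named below, both called Slc7a11, Trib3, Htatip2, Hmox1, Mt2, Sqstm1, Maff, Slc3a2, Mthfd2 and Sars as higher. Between DESeq2 and the likelihood ratio test, DESeq2 alone called Chac1 as higher and Glrx5 as lower. The shares of all genes called higher and lower were 1.29% and 0.0467% without KO replicate 1, and 17.3% and 15.3% without KO replicate 2. Slc7a11 and Trib3 passed under each of the 13 alternatives run. The median log2 fold change of the 85 genes was 0.061.

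**Figure D4:**
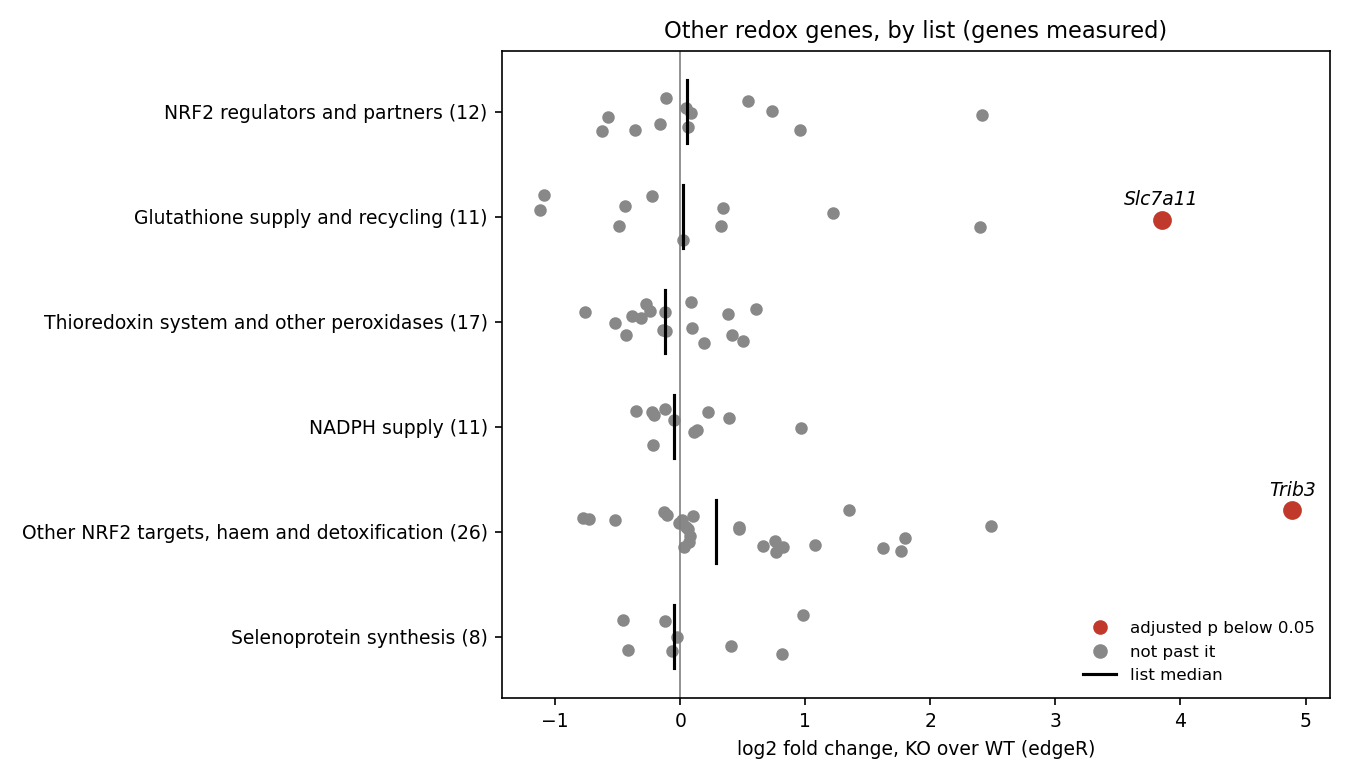
Each point is 1 gene of a list, placed by its edgeR log2 fold change of KO over WT, with called genes in red and the list median as a black line; vertical scatter within a list carries no value. Slc7a11 (3.85) and Trib3 (4.89) lie apart from the other genes of their lists.

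Glutathione supply and recycling had 11 measured genes, of which 1 rose and 0 fell, with a median of 0.026. That median was -0.049 without library scaling and ran from -0.098 to 0.15 without each library in turn. Slc7a11, which imports the cystine that glutathione synthesis needs, had 28.2 and 30.7 CPM in KO replicates 1 and 2, against 1.45 and 2.58 CPM in WT replicates 3 and 8. It was higher in both KO libraries by more than the spread of either group (log2 fold change 3.85, SE 0.35, edgeR adjusted p = 0.043), and it is also a target of the stress factor ATF4. Its partner chain gene Slc3a2 had 799 and 486 CPM in KO, against 290 and 260 CPM in WT (log2 fold change 1.23, edgeR adjusted p = 0.298). Chac1, which degrades glutathione, had 11.5 and 26.5 CPM in KO, against 5.95 and 1.39 CPM in WT (log2 fold change 2.40, edgeR adjusted p = 0.365). It passed without WT replicate 3 (3.77, edgeR adjusted p = 0.00494), and its value was 1.67 without WT replicate 8 and 1.68 without KO replicate 2. The mitochondrial glutaredoxin gene Glrx5, which serves iron-sulfur cluster assembly, had a log2 fold change of -1.09 (edgeR adjusted p = 0.299).

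Regulators and partners of NRF2 had 12 measured genes, with 0 called and a median of 0.055, which was -0.0027 without library scaling and ran from -0.093 to 0.20 without each library in turn. The smallest p belonged to Sqstm1, which encodes the autophagy receptor p62 that binds KEAP1, with 412 and 314 CPM in KO, against 192 and 182 CPM in WT (log2 fold change 0.96, edgeR adjusted p = 0.283). The small MAF gene Maff had 2.41 (edgeR adjusted p = 0.359) at 6.62 and 1.81 CPM in KO, against 0.508 and 1.04 CPM in WT, and its value was 1.18 without KO replicate 1, and 3.04 (edgeR adjusted p = 0.00161) and 3.03 without KO replicate 2 and WT replicate 8. Bach1, a haem-sensitive repressor of antioxidant response elements, had a log2 fold change of 0.54 (edgeR adjusted p = 0.433). Keap1, named here after its values were seen, had 21.6 and 43.5 CPM in KO replicates 1 and 2, against 52.5 and 48.2 CPM in WT, a log2 fold change of -0.63 (edgeR adjusted p = 0.447). As with Txnrd1, KO replicate 1 held the lowest value of Keap1.

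The list of other NRF2 targets with haem and detoxification genes had 26 measured genes, of which 1 rose and 0 fell, with a median of 0.29. That median ran from 0.20 to 0.37 without each library in turn. Without overlap between the groups 13 of the 26 were higher and 3 lower, where 27.4% and 26.7% of all genes were. At an unadjusted p below 0.05 in the edgeR test 8 were higher and 1 lower, where 9.82% and 2.08% of all genes were. Trib3, the gene that passed, is known as an ATF4 target more than as an NRF2 target, and had 228 and 153 CPM in KO, against 7.87 and 5.05 CPM in WT (log2 fold change 4.89, SE 0.35, edgeR adjusted p = 0.027). Htatip2, an oxidoreductase gene, had 167 and 165 CPM in KO, against 62.1 and 68.0 CPM in WT, and did not pass (1.35, SE 0.18, edgeR adjusted p = 0.0904). It passed without KO replicate 1 (edgeR adjusted p = 0.00353), without KO replicate 2 (0.000745) and in unscaled libraries (0.0305). DESeq2 (adjusted p = 9.87e-07) and edgeR's likelihood ratio test (adjusted p = 1.25e-05) called it as well. Haem oxygenase 1, encoded by Hmox1, had 103 and 53.0 CPM in KO, against 27.0 and 23.8 CPM in WT (1.62, SE 0.34, edgeR adjusted p = 0.25), and passed when KO replicate 1 (1.06, edgeR adjusted p = 0.0215) or KO replicate 2 (2.01, edgeR adjusted p = 9.6e-05) was left out. DESeq2 and the likelihood ratio test also called it. The metallothionein gene Mt2 had 7092 and 2998 CPM in KO, against 1114 and 1847 CPM in WT (1.77, SE 0.50, edgeR adjusted p = 0.354). Its value was 1.02 without KO replicate 1 and 2.25 without KO replicate 2. DESeq2 and the likelihood ratio test called Mt2 as well.

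The 3 remaining lists had 0 called genes. Their medians were -0.12 for the thioredoxin system and other peroxidases (17 genes), -0.052 for NADPH supply (11 genes) and -0.047 for selenoprotein synthesis (8 genes). The NADPH median ran from -0.27 to 0.15 and the selenoprotein median from -0.096 to 0.062 without each library in turn, so neither kept its sign. In the first, the smallest p values belonged to the thioredoxin inhibitor gene Txnip (log2 fold change 0.61), the mitochondrial superoxide dismutase gene Sod2 (-0.39) and the peroxiredoxin gene Prdx6 (0.50), with edgeR adjusted p values from 0.43 to 0.433. In the second they belonged to Mthfd2, a mitochondrial folate enzyme gene (0.97, edgeR adjusted p = 0.295), Pgls of the pentose phosphate pathway (0.39) and the NAD kinase gene Nadk (-0.36). In the third, Sars, the seryl-tRNA synthetase gene, had 0.98 (edgeR adjusted p = 0.332), Sepsecs, which makes selenocysteinyl-tRNA, 0.81 (0.22 without KO replicate 1) and the selenophosphate synthetase gene Sephs2 -0.46.

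The genes whose log2 CPM over the 4 libraries, centred on each gene's mean, lay nearest to Txnrd1 were Fam55c, 3110082I17Rik and Tirap, at Euclidean distances of 0.118, 0.136 and 0.137. Nearest to Nfe2l2 were Hbb-bh1, Gm9786 and Rfx1, at 0.0405, 0.0422 and 0.0423. With 4 libraries such nearness describes these libraries only.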

How the data were processed

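RNA from sorted erythroid cells was sequenced in 4 libraries, grouped by their titles. Counts are the whole-number raw counts per gene that the authors deposited. Trimmomatic 0.30, TopHat2 2.0.8, Bowtie2 2.1.0.0, HTSeq, edgeR and limma are among the tools named, with the builds mm9 and NCBIM37, per the submitters' processing notes, which give no roles. The comparison table's log2 fold change, coded WT over KO, and its p-value columns are the authors' own, and the sign was turned here. The deposited TMM-normalised columns were not used.

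Counts were fitted in edgeR 4.0.16 (R 4.3.3) with filterByExpr (0 genes removed), TMM scaling and glmQLFit (robust=TRUE, legacy=TRUE), leaving 2 residual degrees of freedom, with a common biological coefficient of variation of 25.6%. Adjustment was by Benjamini-Hochberg over all 10716 genes at a threshold of 0.05. The SE was the absolute log2 fold change divided by the square root of F. Log2 CPM used a prior count of 2. Since separate embryos are not stated, each p reflects the spread among the 4 libraries alone. The KO replicates differed in Y-linked RNA, so their spread is not that of repeat libraries of the same embryo. The spread between the WT replicates, which both held Y-linked RNA, may be technical. DESeq2 1.42.0, limma-voom (limma 3.58.1), edgeR's likelihood ratio test, RLE or no scaling, other filters, robust=FALSE, legacy=FALSE and leaving out each library were the alternatives. In a fit with 1 library in a group, that library is assumed to vary like the other group.

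Of the 10716 genes 10691 reached 1 CPM in at least 2 libraries, and all 10 genes reached it in every library. The genes, lists and rules were chosen with earlier results of these data known. The naming rule took the 10 genes, Adar, each called gene of a list and the next 3 by p. Positions and exon lengths came from GENCODE on NCBIM37, where 9537 identifiers were found.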

Additional observations from a re-analysis of the deposited data

How the results depend on the processing

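Under the 13 alternatives the call of none of the 10 genes changed except when a KO library was left out. Leaving out each library in turn gave 0 to 3 called genes of the 10. The count was 1 without KO replicate 1, where 1.33% of all genes were called, and 3 without KO replicate 2, where 32.6% were. Both fits rest on a single KO library, so these counts are not read as a result about the 10 genes. Without each library in turn, log2 fold changes ran from 0.61 to 0.82 for Gclc and from -1.08 to -0.0035 for Txnrd1. For Srxn1 they ran from -0.58 (without KO replicate 2, where the direction reversed) to 0.91. Values of Nfe2l2 (-0.091 to 0.29), Nqo1 (-0.30 to 0.12) and Gpx1 (-0.18 to 0.28) crossed 0 without being called. The median of the 10 genes ran from -0.14 to 0.27. The cause was not tested.

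Genes called higher over the table numbered 11, and 85 without library scaling, 353 with DESeq2, 331 with the likelihood ratio test and 25 to 1851 without each library. Genes called lower numbered 0 (smallest adjusted p 0.152, and 223 at an unadjusted p below 0.05), and 2, 21, 18 and 1 to 1641 under the same alternatives. In the wider lists the 2 called higher became 12 with DESeq2 and the likelihood ratio test and 2 to 18 without each library, and the 0 called lower became 1 with DESeq2 and 0 to 11 without each library. Without library scaling the median of all genes shifted to -0.069. No paired analysis was possible because the groups share no replicate number. With 2 libraries a group, differences of the size seen for Gclc, Gclm and Cat did not pass the adjusted threshold, and an interval reaching beyond 0 does not show equal levels.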
